A study of Rattus norvegicus with 8 samples.

Results

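The DnaJ family, also called J-domain proteins or HSP40 co-chaperones, was described in the lumbar spinal cord of rats under chronic water avoidance (WA) stress. Members were all probes other than control spots whose gene name began with Dnaja, Dnajb or Dnajc followed by a digit, which gave 48 of 30367 probes and 40 of 16351 genes. Class A had 4 genes, class B 12 and class C 24. Dnajc21 was set against the rest of the family because it was already known to differ between the groups of these arrays. Its own difference is therefore given as a description, without a test, and it is left out of the counts of genes called. RNA of 8 male Wistar rats aged 12 weeks was measured on Agilent 1-colour arrays, 1 array per rat. The stress group of 4 rats had daily WA stress for 10 days, which means time on a small platform with water around it, and tissue was taken 24 h after the last stressor. The control group held the other 4 rats, of the same sex, strain and age. The comparison asks which spinal transcripts differ after repeated psychological stress.

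J-domain proteins bind HSP70 chaperones, bring unfolded clients to them and stimulate their ATP hydrolysis through a conserved histidine, proline and aspartate triplet in the J domain. Class A proteins carry a J domain, a glycine and phenylalanine rich stretch and a cysteine-rich zinc-binding region, class B proteins lack the zinc-binding region, and class C proteins share only the J domain. In neurons, members of the family are known for clathrin uncoating, for the release of transmitter at synapses and for holding aggregation-prone proteins in solution.

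Signals are given as log2 of the spot signal minus the 75th percentile of its array, so that 0 is the level of that percentile, and differences are stress minus control. A gene was tested when its brightest probe, by the mean over all 8 arrays, stood well above background on 4 or more of the 8 arrays, whichever group they came from. The 75th percentile itself was 2160 ± 228 intensity units for the control arrays (SD, n = 4) and 1870 ± 87.1 for the stress arrays (SD, n = 4), with an exact two-sided permutation p of 0.114. Between 23005 and 24066 probes were well above background on each array. All arrays shared 1 slide, and since the stressed rats filled row 1 and the control rats row 2, the row and the group cannot be told apart.

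The markers listed for neurons, astrocytes, oligodendrocytes and microglia were well above background on all 8 arrays, 5 of 5 measured genes in each list. Their summed log2 level per array ran from 7.26 to 7.38 in control rats and from 7.3 to 7.56 in stressed rats for neurons, with Nefm the brightest marker, and from 7.82 to 8.35 and from 7.92 to 8.4 for oligodendrocytes, with Mbp the brightest. For microglia, led by C1qa, it ran from 3.11 to 3.43 in control rats and from 3.07 to 3.37 in stressed rats. The astrocyte sum, led by Aqp4, was 5.62 to 5.9 in control rats and 5.79 to 6.2 in stressed rats, and 4 of its 5 genes had positive differences, with a median of 0.30. Among them Gja1 was higher in every stressed rat than in any control rat (0.30, adjusted p = 0.120, range 0.0124 to 0.315 over alternatives), and Gfap differed by 0.81 at an adjusted p of 0.322 (range 0.00842 to 0.819). All 5 neuron genes had positive differences, with a median of 0.20, among them Tubb3 with every stressed rat above the control rats (0.14, adjusted p = 0.338, range 0.189 to 0.911) and Nefl at 0.57 with an adjusted p of 0.120 (range 0.00140 to 0.307). Differences were negative in 4 of 4 meningeal and fibroblast genes (median -0.30) and in 3 of 3 each for blood (-0.11), sensory ganglion (-0.26) and the lumbosacral Hox genes (-0.60). The loss of a rat moved these medians. Without control replicate 1, 2 of 4 meningeal genes were positive (median 0.044), and without stress replicate 4, 2 of 3 blood genes were (0.0265). Without stress replicate 3 the sensory ganglion median was -0.048 and that of the Hox genes -0.22. With the covariate for 5′ relative to 3′ signal described below, 2 of 5 astrocyte, 1 of 4 endothelial, 4 of 5 neuron and 2 of 4 meningeal genes were positive. Microglia then had 1 of 5 positive and oligodendrocytes 2 of 5, where each had 4 of 5 without the covariate. It left 2 of 4 motor neuron and 1 of 3 sensory ganglion genes positive. Of the Schwann cell, blood and Hox genes 0 of 3 each were positive, and of the muscle genes 0 of 2. Over all the marker lists, limma called 2 of 46 tested genes at a false discovery rate (FDR) below 0.1 (4.35%, beside 3.62% of all tested genes), Mog of oligodendrocytes and Pecam1 of endothelium, both higher in stressed rats. Mog differed by 0.90 at an adjusted p of 0.0721 and Pecam1 by 0.40 at 0.0927, and both calls were lost with the loss of any rat other than control replicate 2, in ranges of 0.00173 to 0.220 and 0.00480 to 0.266 over alternatives. Both were lost with the covariate too, and with the replicate number as a block. The motor neuron sum ran from 2.97 to 3.27 in control rats and from 2.61 to 3.11 in stressed rats, the blood sum from 5.74 to 6.35 and from 5.5 to 6.63, and the endothelial sum, with 4 of 4 genes positive, from 1.43 to 1.89 and from 1.66 to 1.96. Without the covariate 1 of 4 motor neuron genes was positive, Chat at 0.67, and the median was -0.13. Prph, the brightest of them, differed by -0.24, so these genes did not move together. The Schwann cell list, with 3 genes and Mal the brightest, stood at 2.08, 1.55, 0.627 and 0.344 in control replicates 1 to 4 and at 0.854, 1.25, 1.65 and 0.583 in stress replicates 1 to 4. Mal led this sum on every array except that of control replicate 1, where it stood at -0.47 and Pmp2 at 1.73. Since Mal moved against both other genes, the sum is not read as content of Schwann cells. Mal differed by 0.63, against -1.18 for Pmp2 and -1.03 for Prx, at adjusted p values of 0.363, 0.478 and 0.576 (ranges 0.00813 to 0.612, 0.273 to 0.865 and 0.314 to 0.873 over alternatives), and the median of the 3 was -1.03. That median was -0.35 without control replicate 1, -1.755 without control replicate 4 and -0.40 after normexp background correction. The meningeal and fibroblast sum ran from 0.139 to 2.18 in control rats and from 0.195 to 1.78 in stressed rats, and the sensory ganglion sum from 3.65 to 4.14 and from 2.82 to 4.06. Calca made up nearly all of the sensory ganglion sum, since Scn10a and Trpv1 were far dimmer, with control means of -6.68 and -4.42. That sum is therefore not read as content of ganglion cells. The skeletal muscle sum stood at -4.17, -3.15, -4.14 and -4.3 in control replicates 1 to 4 and at -3.32, -3.33, -3.27 and -3.7 in stress replicates 1 to 4, so that control replicate 2 lay above the stressed rats and the other control rats below them, and Myh4 of muscle was well above background on 0 arrays. The lumbosacral Hox genes summed to 2.56 in stress replicate 3 and to between 3.03 and 3.66 on the other arrays. In that rat Hoxa10 stood at -3.46, and in the others between -0.33 and 0.52. Of the listed markers Rbfox3, Mnx1, Hoxc9 and Hoxc10 had no probe under that name. The part of these differences in the levels of the DnaJ genes was not tested.

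Across the family, 37 of the 40 genes could be tested, 4 in class A, 11 in class B and 22 in class C. Of the 36 other than Dnajc21, limma called 2 at FDR below 0.1, Dnajb9 and Dnajc30, both higher in stressed rats. That is 5.56%, beside 3.62% of all 13359 tested genes and 3.74% of all 23678 tested probes, and nothing about the family is read from a share so near that of all genes. At FDR below 0.05 only Dnajb9 was called, where 0.352% of all genes were. Over all genes, 2.34% were called higher and 1.28% lower. No DnaJ gene was called lower by limma (0 genes), and at an unadjusted p below 0.05 there were 9 of the 36 (25%), 7 higher and 2 lower, beside 19.8% of all genes, 11.3% higher and 8.5% lower. The count of 2 was 21 without control replicate 2, 1 without stress replicate 4 and 0 without control replicate 1, 3 or 4 or stress replicate 1, 2 or 3, where limma left 4 to 6 at an unadjusted p below 0.05. These arrays measure whole tissue, where fewer cells of a type and less RNA per cell cannot be told apart.

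The median log2 fold change of the 37 genes was 0.069, and 0.067 without Dnajc21, beside 0.024 over all genes, with 21 positive and 16 negative. This sign turned with the scaling: the median was -0.020 after quantile normalization and -0.051 when each array was scaled to its median, which shifted the median of all genes by -0.12, to -0.096. It was 0.039 without stress replicate 2 and 0.026 with a covariate for each array's signal at 5′ probes relative to 3′ probes of a transcript (the 5′ minus 3′ covariate). By class, the median was 0.29 in A, 0.066 in B and 0.033 in C, or -0.021 in C without Dnajc21. With Dnajc21 kept, those of B and C turned to -0.020 and -0.033 after quantile normalization. After median scaling they were -0.054 and -0.086, where that of A was 0.17. The loss of a rat turned them too, class B to -0.011 without stress replicate 2 and class C to -0.013 without control replicate 1. Relative to the median of all genes, the family stood 0.045 higher in the main scaling, 0.013 after quantile normalization and 0.045 after median scaling, and this distance was 0.0043 without control replicate 2, 0.013 without stress replicate 2 and 0.085 with the covariate, so no offset of the family is read from it. The median absolute difference was 0.15, against 0.16 over all genes. On each array the median level of the members lay between -0.64 and -0.49, with the groups overlapping. In 4 of the 36 genes other than Dnajc21 (11.1%), Dnaja1, Dnajb6, Dnajb9 and Dnajc30, the lowest stressed rat was higher than the highest control rat, beside 5.89% of all genes. In 2 of them (5.56%), Dnajb13 and Dnajc5, the order was reversed without overlap, beside 7.25%.

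**Figure D1:**
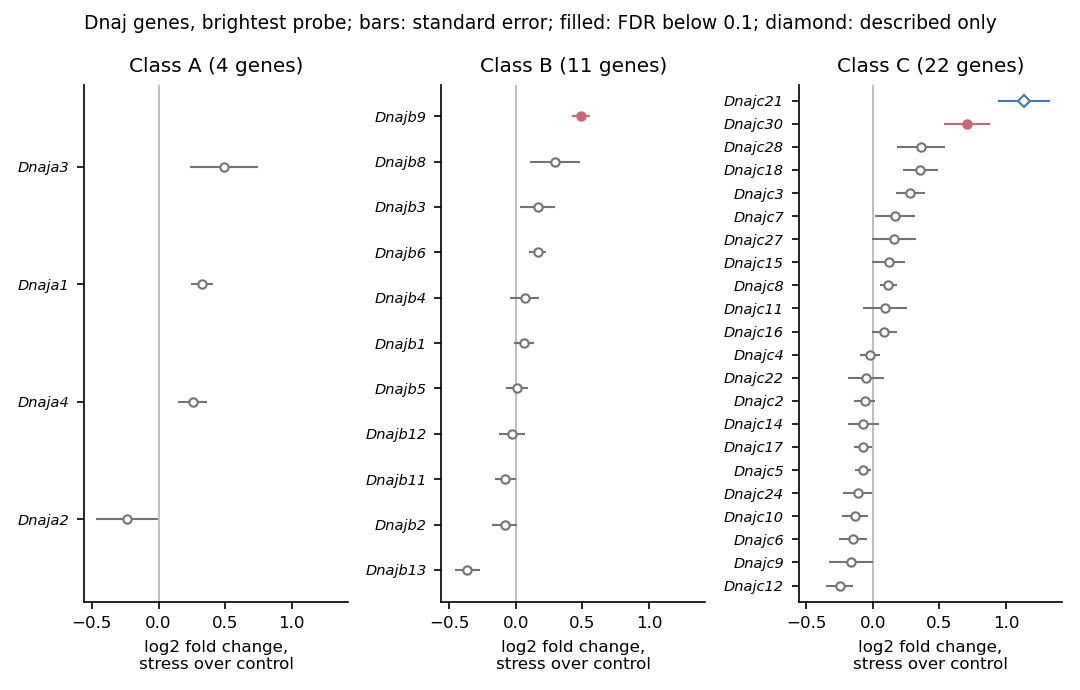
Log2 fold change (stress minus control, 4 rats a group) of the brightest probe of each of the 37 DnaJ genes by class, with bars for the standard error. Filled points are genes at FDR below 0.1, Dnajb9 at 0.49 and Dnajc30 at 0.71, and the diamond is Dnajc21 at 1.13, which is described without a test; the median over the genes is 0.069 and turns to -0.020 and -0.051 under quantile and median scaling.

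Dnajc21 is the mammalian relative of a yeast J-domain protein that acts with zinc finger partners in the late maturation of the 60S ribosomal subunit in the cytoplasm. It carries C2H2 zinc fingers of its own beside the J domain. The array holds 1 probe for it, repeated in 10 spots, at bases 769 to 828 of the transcript and, on the rn4 assembly as the files give it, at chr2:59796799-59796858 on the minus strand. Whether this place lies in an exon or a UTR by annotation was not analysed here. The probe is shown because all Dnajc21 values come from it. Capitals mark base triplets that can encode cysteine, cysteine and histidine with the spacing of a C2H2 finger, separated by 6 and 36 bases within a frame free of stop codons.
Dnajc21: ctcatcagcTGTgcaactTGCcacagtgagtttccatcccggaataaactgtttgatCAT
No other DnaJ probe had triplets with this spacing, which 39 of the 30367 probes (0.128%) carry.

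Dnajc21 measured -2.20, -1.27, -2.16 and -1.88 in control replicates 1 to 4 and -0.76, -0.69, -0.81 and -0.74 in stress replicates 1 to 4. All stressed rats were above all control rats, the stressed rats lay close together, and control replicate 2 was the highest control. The control mean was -1.88 ± 0.43 (SD, n = 4), the stress mean -0.75 ± 0.049 (SD, n = 4), and the difference 1.13 with a standard error of 0.20. Within an array the spots of the probe differed little, with an SD between 0.028 and 0.075. The lowest spot of any stressed rat stood at -0.88 and the highest spot of any control rat at -1.21. Without control replicate 2 the difference was 1.34, and without any other rat it was between 1.03 and 1.15. Among the brightest probes of the tested members, the fold change next in size was that of Dnajc30 at 0.71. With the 5′ minus 3′ covariate the difference of Dnajc21 was 0.66 with a standard error of 0.086.

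**Figure D2:**
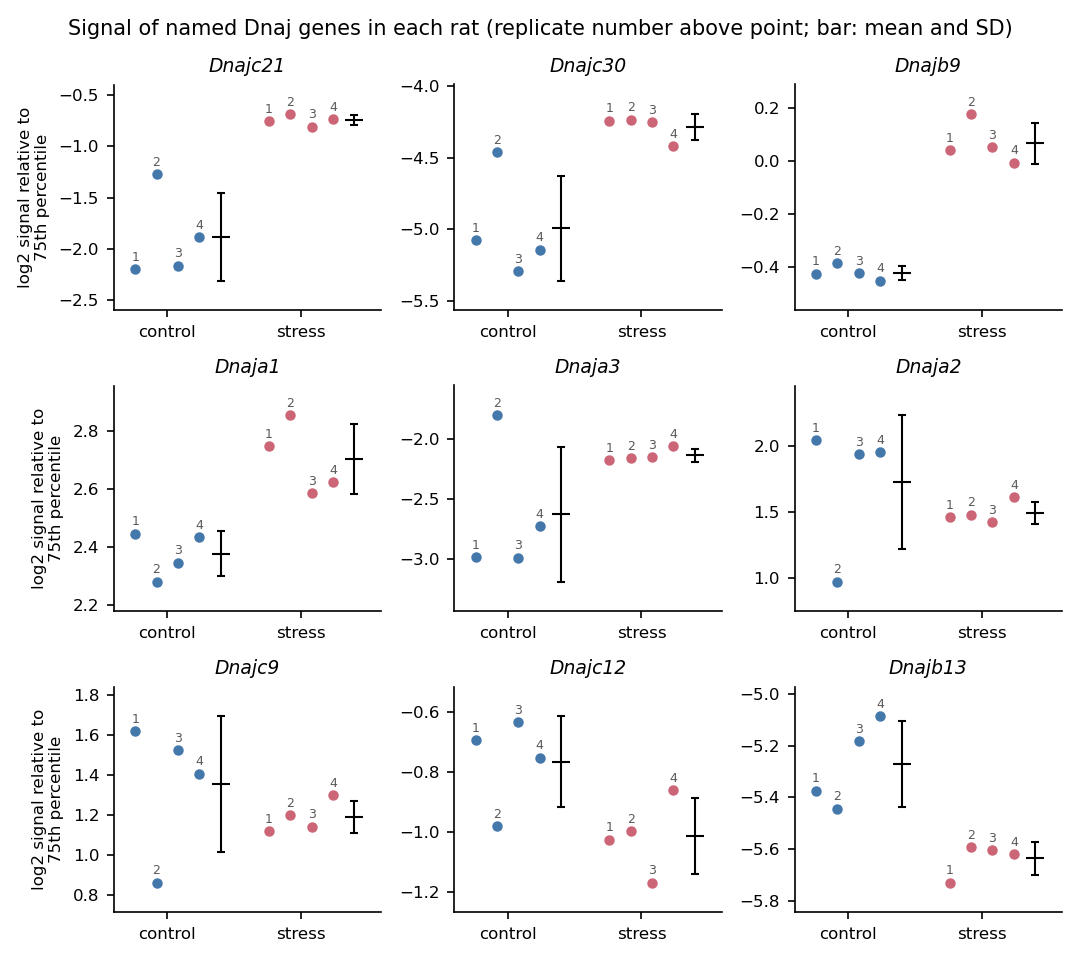
Log2 signal minus the array's 75th percentile for 9 named DnaJ genes in each of the 4 control and 4 stressed rats, with the replicate number above each point and the mean and SD beside each group. Stressed rats sit between -0.81 and -0.69 for Dnajc21 against -2.20 to -1.27 in control rats, and control replicate 2 lies among or beyond the stressed rats for Dnaja3, Dnaja2, Dnajc9 and Dnajc12.

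Class A holds the general J-domain proteins of the cytosol, Dnaja1, Dnaja2 and Dnaja4, and the mitochondrial Dnaja3, all 4 of which were tested. Limma called 0 of them, and 2, Dnaja1 and Dnaja4, had an unadjusted p below 0.05 (50%, beside 19.8% of all genes). With 4 genes nothing is read from this share. Dnaja1 had the lowest p of the class. It measured 2.45, 2.28, 2.35 and 2.43 in the control rats, in replicate order, and 2.75, 2.85, 2.59 and 2.62 in the stressed rats. The groups did not overlap, and control replicate 2 was the lowest of all rats. The difference of 0.33 with a standard error of 0.084 missed the threshold at an adjusted p of 0.110. It was past it in 8 of 20 alternatives, with adjusted p values from 0.00613 to 0.315 over all of them, and without control replicate 2 it was 0.29 at an adjusted p of 0.0307. Dnaja4 differed by 0.26 at an adjusted p of 0.236. It was 0.33 at 0.0298 without control replicate 2 and 0.070 at 0.723 with the 5′ minus 3′ covariate, in a range of 0.0118 to 0.723 over alternatives.

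Dnaja3, which works with the mitochondrial HSP70 Hspa9, measured -2.99, -1.80, -2.99 and -2.73 in the control rats and -2.17, -2.16, -2.15 and -2.06 in the stressed rats. Control replicate 2 was above every stressed rat, and the other 3 control rats were below them. The difference of 0.49 had a standard error of 0.25 and an adjusted p of 0.308. Dnaja2 was the opposite case, at 2.05, 0.97, 1.94 and 1.96 in the control rats and 1.46, 1.48, 1.42 and 1.61 in the stressed rats. Here control replicate 2 was below every stressed rat and the other control rats were above them. The difference was -0.24 with a standard error of 0.23 and an adjusted p of 0.575. Without control replicate 2 both genes were called, Dnaja3 at 0.77 with an adjusted p of 0.00127 and Dnaja2 at -0.49 with an adjusted p of 0.00267. With the 5′ minus 3′ covariate the sign of Dnaja2 turned, to 0.34 at an adjusted p of 0.0895, and Dnaja3 stood at -0.14 with an adjusted p of 0.471. Over all alternatives the adjusted p ran from 0.00127 to 0.568 for Dnaja3 and from 0.00267 to 0.819 for Dnaja2.

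In class B, 11 of 12 genes were tested and 1 was called (9.09%, beside 3.62% of all genes), Dnajb9. This protein of the endoplasmic reticulum binds the HSP70 of that compartment, Hspa5, is induced by the unfolded protein response and holds the sensor of that response in check. Dnajb9 measured -0.43, -0.39, -0.42 and -0.45 in the control rats and 0.042, 0.18, 0.053 and -0.0055 in the stressed rats. The groups lay apart, and all 4 control rats, replicate 2 included, were within a narrow range. Dnajb9 rose by 0.49 with a standard error of 0.066 (adjusted p = 0.0396). It was called in 13 of 20 alternatives, with adjusted p values from 0.000962 to 0.207 over all of them. Leaving out control replicate 1, 3 or 4 or stress replicate 1, 2 or 3 ended the call, with adjusted p values from 0.121 to 0.162. It held without control replicate 2 at 0.00183 and without stress replicate 4 at 0.0981. With the 5′ minus 3′ covariate Dnajb9 differed by 0.46 at an adjusted p of 0.0424.

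Dnajb13, a protein of the axoneme of cilia and sperm tails, gave the largest negative difference of the family in the main processing, on a probe well above background on all 8 arrays. Dnaja2 was lower without control replicate 2 (-0.49) and after normexp background correction (-0.25), and Dnajc11 with the 5′ minus 3′ covariate (-0.31). Dnajb13 measured -5.37, -5.44, -5.18 and -5.09 in the control rats and -5.73, -5.59, -5.60 and -5.62 in the stressed rats. All stressed rats were below all control rats. The difference of -0.36 with a standard error of 0.095 missed the threshold at an adjusted p of 0.113, and it was -0.061 after normexp background correction and -0.55 after quantile normalization. Without control replicate 2 it was -0.42 at an adjusted p of 0.00962, the range over alternatives being 0.00306 to 0.920. Dnajb6, which holds polyglutamine proteins in solution, ranged from 0.87 to 1.01 in control rats and from 1.03 to 1.16 in stressed rats and differed by 0.16 at an adjusted p of 0.228. It was 0.045 at 0.734 after median scaling and 0.19 at 0.0432 without control replicate 2, in a range of 0.0219 to 0.734. The other tested class B genes, the cytosolic Dnajb1, Dnajb2, Dnajb4 and Dnajb5 among them, had differences between -0.082 and 0.30 and adjusted p values of at least 0.391. Dnajb7 was well above background on 0 arrays and was not tested.

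Class C had 22 of 24 genes tested. Of the 21 other than Dnajc21, 1 was called (4.76%, beside 3.62% of all genes), Dnajc30, with 10 positive and 11 negative differences and a median of -0.021. Dnajc30 is a mitochondrial J-domain protein known to act at the ATP synthase and in the repair of respiratory complex I. Its probe lies near the start of the transcript, at bases 75 to 134, and at chr12:22724392-22724451 on the minus strand of rn4. It is shown, with no letters marked, because all Dnajc30 values come from it.
Dnajc30: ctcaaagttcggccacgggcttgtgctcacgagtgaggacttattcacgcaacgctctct
Dnajc30 measured -5.08, -4.46, -5.29 and -5.14 in the control rats and -4.24, -4.24, -4.25 and -4.42 in the stressed rats. The groups did not overlap, though control replicate 2 stood close to the lowest stressed rat, replicate 4. Dnajc30 rose by 0.71 with a standard error of 0.17 (adjusted p = 0.0982), just inside the threshold. It was called in 10 of 20 alternatives, with adjusted p values from 0.000826 to 0.423. Leaving out any rat other than control replicate 2 ended the call, with adjusted p values from 0.160 to 0.268, and without control replicate 2 the difference was 0.88 at 0.000826. With the 5′ minus 3′ covariate it was 0.30 at an adjusted p of 0.118, and after normexp background correction it was 0.37 at 0.423.

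Among the negative differences of class C, Dnajc12, which assists the hydroxylases of aromatic amino acids, measured -0.70, -0.98, -0.64 and -0.75 in the control rats and -1.03, -1.0, -1.17 and -0.86 in the stressed rats. Control replicate 2 lay among the stressed rats, so that the groups overlapped. The difference was -0.25 with a standard error of 0.10 and an adjusted p of 0.234, without control replicate 2 it was -0.32 at 0.0257, and with the 5′ minus 3′ covariate -0.062 at 0.725, in a range of 0.00819 to 0.725 over alternatives. Dnajc9, a chaperone of histones H3 and H4, measured 1.62, 0.86, 1.53 and 1.41 in the control rats and 1.12, 1.20, 1.14 and 1.30 in the stressed rats. Control replicate 2 was below all stressed rats, and the other control rats were above them. The difference was -0.16 with a standard error of 0.16 and an adjusted p of 0.577. Without control replicate 2 it was -0.33 at 0.0177, and with the 5′ minus 3′ covariate 0.23 at 0.102, in a range of 0.0156 to 0.846 over alternatives. Dnajc3, an inhibitor of translation kinases that resides in the endoplasmic reticulum, differed by 0.28 at an adjusted p of 0.206, and Dnajc18 by 0.36 at 0.196. Both were called without control replicate 2, Dnajc3 at 0.38 with an adjusted p of 0.00528 and Dnajc18 at 0.49 with 0.00187. With the covariate they stood at 0.060 and 0.069, and their adjusted p ran from 0.00349 to 0.671 and from 0.00160 to 0.651 over alternatives. Dnajc5g was well above background on 0 arrays, and Dnajc5b on 3, of which 1 was a control array and 2 were stress arrays, so neither was tested.

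The probes of Dnajc18 and Dnajc15 lie over the part of the transcript that encodes the J-domain signature. They are shown to place what the arrays measured on the family's shared domain. Capitals mark the base triplets of the histidine, proline and aspartate signature, searched as CACCCNGAC, CACCCNGAT, CATCCNGAC and CATCCNGAT in a frame free of stop codons, on the strand of the transcript. Of the 48 member probes 2 held it, and of all 30367 probes 65 did (0.214%). The Dnajc18 probe is at chr18:28315570-28315629, minus strand, and the Dnajc15 probe runs over chr15:58871379-58892085, minus strand, both on rn4.
Dnajc18: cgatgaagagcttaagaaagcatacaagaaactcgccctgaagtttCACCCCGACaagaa
Dnajc15: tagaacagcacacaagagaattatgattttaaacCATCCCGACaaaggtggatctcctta
The 60 bases of the Dnajc15 probe span 20707 bases of the genome, and 5 of the 48 member probes, this probe included, span more than 60 bases. Dnajc15, which takes part in protein import at the inner mitochondrial membrane, differed by 0.12 at an adjusted p of 0.601, by 0.0083 without control replicate 2, by -0.0015 after median scaling and by 0.36 with the 5′ minus 3′ covariate, the range of adjusted p being 0.115 to 0.996.

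Grouped by the place where the proteins act, the endoplasmic reticulum had 7 tested genes, of which limma called 1 (14.3%), Dnajb9. The mitochondria had 4, of which 1 was called (25%), Dnajc30, where 3.62% of all genes were called, and with so few genes nothing is read from these shares. The lists by place do not take in every member, and Dnajc4 (-0.021) and Dnajc28 (0.36) are among those in no list. The differences of the 4 listed mitochondrial genes, Dnaja3, Dnajc11, Dnajc15 and Dnajc30, were all positive with a median of 0.30. In this group 3 of 4 were positive after quantile normalization, with array weights and without control replicate 1, and 2 of 4 after median scaling and with the 5′ minus 3′ covariate. The median was 0.18 after median scaling, 0.083 with the covariate, 0.49 with array weights and 0.51 without control replicate 2. At the synapse, Dnajc5, the cysteine string protein of synaptic vesicles, differed by -0.074, and Dnajc6, the neuronal auxilin that uncoats clathrin vesicles, by -0.15, and limma called 0 of these 2, with 0 at an unadjusted p below 0.05. Dnajc6 stood at 0.043 with the covariate and was called without control replicate 2, at -0.22 with an adjusted p of 0.0781, in a range of 0.0565 to 0.824. Dnajc5 lay between -1.60 and -1.54 in control rats and between -1.68 and -1.62 in stressed rats, without overlap. Of the genes of the nucleus, RNA and ribosome, 4 were tested beside Dnajc21, and limma called 0 of these, with 0 at an unadjusted p below 0.05. The 4, the ribosome-bound Dnajc2, the splicing-associated Dnajc8 and Dnajc17 and the histone chaperone Dnajc9, had differences between -0.16 and 0.11. Of 6 genes known from testis and cilia, 3 were tested and limma called 0, with 1, Dnajb13, at an unadjusted p below 0.05 (33.3%, beside 19.8% of all genes).

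For 5 genes, 2 or more probes were tested, and in some they gave unlike differences. Dnajb2, a neuronal class B protein, differed by 0.58 at a probe that starts at base 447 of the transcript and by -0.082 at base 1275. Dnajc14 differed by 1.46 at base 698, by 0.078 at base 2262 and by -0.070 at base 2766. The first Dnajc14 probe was not well above background on 2 of the 4 control arrays, so that the size of its difference is uncertain, with a standard error of 0.74 and a value of 0.27 after normexp background correction. The difference of this probe turned to -0.17 with the 5′ minus 3′ covariate, with a standard error of 0.59. Without control replicate 2 it was 2.11. Neither gene had probes of opposite sign that both reached an unadjusted p of 0.05. Dnaja3 differed by 0.43 at base 237 and 0.49 at base 643, and Dnajb3 by 0.089 at base 738 and 0.17 at base 934. Dnajc17 differed by -0.044 at base 211, -0.21 at base 824 and -0.074 at base 944, and its first probe is placed on another chromosome than the others in the files. A second Dnajc27 probe was well above background on 1 array and was not tested.

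The arrays also differed in the signal of 5′ probes relative to 3′ probes over many transcripts. For 1885 transcripts, the log2 signal of the most 3′ tested probe was subtracted from that of the most 5′, at a distance of 300 bases or more, and centred over the arrays. The median was -0.30, 0.22, -0.30 and -0.18 in control replicates 1 to 4 and 0.17, 0.15, 0.17 and 0.092 in stress replicates 1 to 4. Control replicate 2 lay above all stressed rats and the other control rats below them (exact permutation test, two-sided p = 0.143, where the smallest possible p is 0.0286). The SD was 0.246 in the control group and 0.0357 in the stress group. A fit with the covariate therefore leans largely on control replicate 2 and is not a separate check beside the loss of that rat. With this difference as a covariate, the 5′ probe of Dnajb2 moved from 0.58 to -0.20 and that of Dnaja3 from 0.43 to -0.54, both probes well above background on all 8 arrays. Limma then called 4 of the 36 members other than Dnajc21 (11.1%), beside 10.6% of all genes. These were Dnaja1, Dnaja2 and Dnajb9 at positive and Dnajc11 at negative differences, of which 1, Dnajb9, was also called without the covariate. Of the 36, 13 turned their sign with the covariate, 17 kept it but moved by more than 1.5 times, and 6 moved by less.

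**Figure D3:**
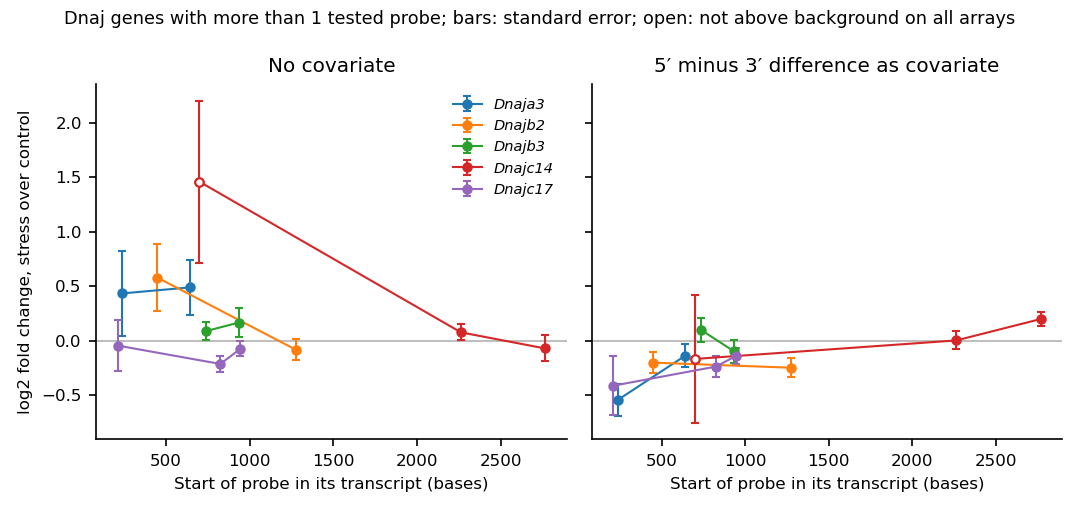
Log2 fold change (stress minus control, 4 rats a group) against the start of the probe in its transcript, in bases, for the 5 DnaJ genes with more than 1 tested probe, without (left) and with (right) the 5′ minus 3′ covariate; bars are standard errors, lines join probes of a gene, and the open point is the Dnajc14 probe that was not well above background on 2 control arrays. The 5′ probes of Dnajb2 and Dnaja3 stand at 0.58 and 0.43 on the left and at -0.20 and -0.54 on the right.

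Control replicate 2 lay outside the range of control replicates 1, 3 and 4 toward the stressed rats in 28 of 37 DnaJ genes (75.7%), beside 64.7% of all genes, and beyond the mean of the stressed rats in 18 (48.6%), beside 52.9%. On a scale where 0 is the mean of the other control rats and 1 the mean of the stressed rats, its median position was 0.969 over the family and 1.09 over all genes. Both values of a gene are measured from the same mean of 3 control rats, so they are alike in part by construction. Read in the same way against the other 3, control replicates 1, 3 and 4 lay outside their range toward the stressed rats in 8, 1 and 5 of the 37 genes and in 23.4%, 15.1% and 19% of all genes, with median positions over the family of -0.42, -0.59 and -0.070. Dnajb9 and Dnaja1 were among those not following this, at 0.0951 and -0.432, while Dnajc21 stood at 0.606 and Dnajc30 at 0.80. Without control replicate 2 limma called 21 of the 36 DnaJ genes other than Dnajc21, 13 higher and 8 lower (58.3%), but it then called 41.1% of all genes as well. Of these 36, 3 then turned their sign, 18 kept it but moved by more than 1.5 times and 15 moved by less. Without stress replicate 4 it called Dnajb9 alone (2.78%), beside 0.195% of all genes.

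**Figure D4:**
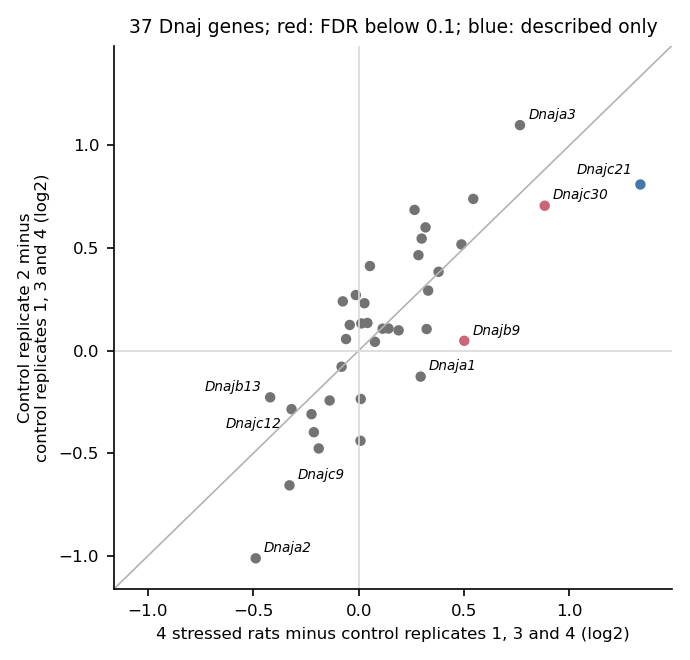
For each of the 37 DnaJ genes, control replicate 2 minus the mean of control replicates 1, 3 and 4 (vertical, log2) against the mean of the 4 stressed rats minus the same (horizontal, log2), with a line of equality. Red marks genes at FDR below 0.1 and blue Dnajc21, described only; both axes share the mean of control replicates 1, 3 and 4, the median ratio of the vertical to the horizontal value is 0.969, while Dnajb9 and Dnaja1 lie near or below the horizontal 0 line.

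J-domain proteins act with partners, which were read from lists of their kind. Of the HSP70 and HSP110 chaperones, 14 of 15 listed genes were tested and limma called 1 higher and 1 lower (14.3%, beside 3.62% of all genes). At an unadjusted p below 0.05 there were 4 (28.6%, beside 19.8% of all genes), Hspa9, Hspa1l, Hsph1 and Hspa1b. Hspa1b differed by 0.46 at an adjusted p of 0.166. With 14 genes nothing is read from these shares. Hspa9, the mitochondrial HSP70, measured -1.41, -0.15, -1.28 and -1.16 in the control rats and 0.39, 0.54, 0.42 and 0.42 in the stressed rats. The groups did not overlap, and control replicate 2 lay between the other control rats and the stressed rats. Hspa9 rose by 1.44 with a standard error of 0.26 (adjusted p = 0.0590), and the call was lost in 8 of 20 alternatives, among them the loss of any rat other than control replicate 2, at adjusted p values from 0.132 to 0.204. Without control replicate 2 the difference was 1.72 at 0.000257, with the 5′ minus 3′ covariate it was 0.80 at 0.0390, and over all alternatives the adjusted p reached 0.207. Hspa1l, an HSP70 known from testis, measured -6.16, -6.24, -6.08 and -6.36 in the control rats and -6.67, -6.94, -6.55 and -6.62 in the stressed rats. This probe was well above background on 4 control and 3 stress arrays, all stressed rats were below all control rats, and it fell by 0.48 with a standard error of 0.11 (adjusted p = 0.0832). After normexp background correction its difference was -0.034 at 0.965. The loss of any rat other than control replicate 2 ended its call too, at adjusted p values from 0.148 to 0.250, while without control replicate 2 it was -0.49 at 0.0179. It was called in 8 of 19 alternatives, with adjusted p values from 0.00498 to 0.965.

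Hspa5, the partner of Dnajb9 in the endoplasmic reticulum, ranged from 3.16 to 3.25 in control rats and from 3.21 to 3.30 in stressed rats, and it differed by 0.061 at an adjusted p of 0.582, and by -0.059 at 0.688 after median scaling, in a range of 0.177 to 0.821. Hspa8, the constitutive cytosolic HSP70, gave 0.76 and 0.82 at probes that start at bases 483 and 523 and 0.18 and 0.10 at bases 1800 and 1860, none of them called. With the covariate these were 0.14, 0.083, 0.078 and -0.0039, and without control replicate 2 the first 3 were called, at 1.02, 1.14 and 0.23. Hsph1, of the HSP110 group, differed by 1.14 at an adjusted p of 0.120, by 1.40 at 0.00590 without control replicate 2 and by 0.48 at 0.294 with the covariate, in a range of 0.00249 to 0.307. Among nucleotide exchange factors, which release ADP from HSP70, 9 of 10 listed genes were tested and limma called 0. At an unadjusted p below 0.05 there were 2, Bag1 and Bag3 (22.2%, beside 19.8% of all genes). The largest positive difference was that of Hspbp1, 0.32 at an adjusted p of 0.35, and the largest negative that of Bag1, -0.22 at 0.198. With the 5′ minus 3′ covariate the sign of Hspbp1 turned, to -0.091 at 0.713, and Bag1 stood at -0.091 at 0.498. Both were called without control replicate 2, Hspbp1 at 0.50 with an adjusted p of 0.0124 and Bag1 at -0.28 with 0.0125. The range over alternatives was 0.00484 to 0.713 for Hspbp1 and 0.00540 to 0.498 for Bag1. J-domain proteins under other names gave 0 calls by limma in 3 tested genes, with 1 at an unadjusted p below 0.05 (33.3%, beside 19.8% of all genes). This was Gak, a relative of auxilin, at 0.25 (adjusted p = 0.188). Gak stood at 0.12 with the covariate and was called without control replicate 2, at 0.31 with an adjusted p of 0.0181, in a range of 0.00420 to 0.464. Sec63, of the protein channel of the endoplasmic reticulum, had the lowest difference of these, 0.0010 at an adjusted p of 0.994, and stood at -0.12 after median scaling with an adjusted p of 0.446, in a range of 0.446 to 0.995 over alternatives.

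In late maturation of the 60S subunit, the process of Dnajc21, all 14 listed genes with a probe were tested. Rsl24d1 and Mrto4, like Dnajc21, were known from earlier results of these data. They were left out of the count, and their differences are given as a description, without a test. Of the other 12, limma called 0, with 2 at an unadjusted p below 0.05 (16.7%, beside 19.8% of all genes). Rsl24d1, a ribosome assembly factor related to the ribosomal protein Rpl24, measured -3.48, -1.79, -3.06 and -2.79 in the control rats and -0.94, -0.79, -0.78 and -0.70 in the stressed rats. All stressed rats were above all control rats, with control replicate 2 the nearest to them. The difference of Rsl24d1 was 1.98 with a standard error of 0.32. Without control replicate 2 it was 2.31, and without any other rat it was between 1.74 and 2.02. With the 5′ minus 3′ covariate it was 1.21. Sbds, which acts in the release of Eif6 from the subunit, differed by 0.72 at an adjusted p of 0.132 (range 0.00109 to 0.331), Eif6 itself by 0.026 and by -0.094 after median scaling, and Pa2g4, the relative of the yeast export factor that Dnajc21's relative helps to release, by 0.22 at 0.364 (range 0.0207 to 0.788). With the covariate Sbds stood at 0.24 and Pa2g4 at -0.054, and both were called without control replicate 2, at 0.91 and 0.34. Mrto4, a placeholder for the stalk protein Rplp0, had the largest negative difference, -0.20. It was -0.19 without control replicate 2 and -0.32 after median scaling.

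**Figure D5:**
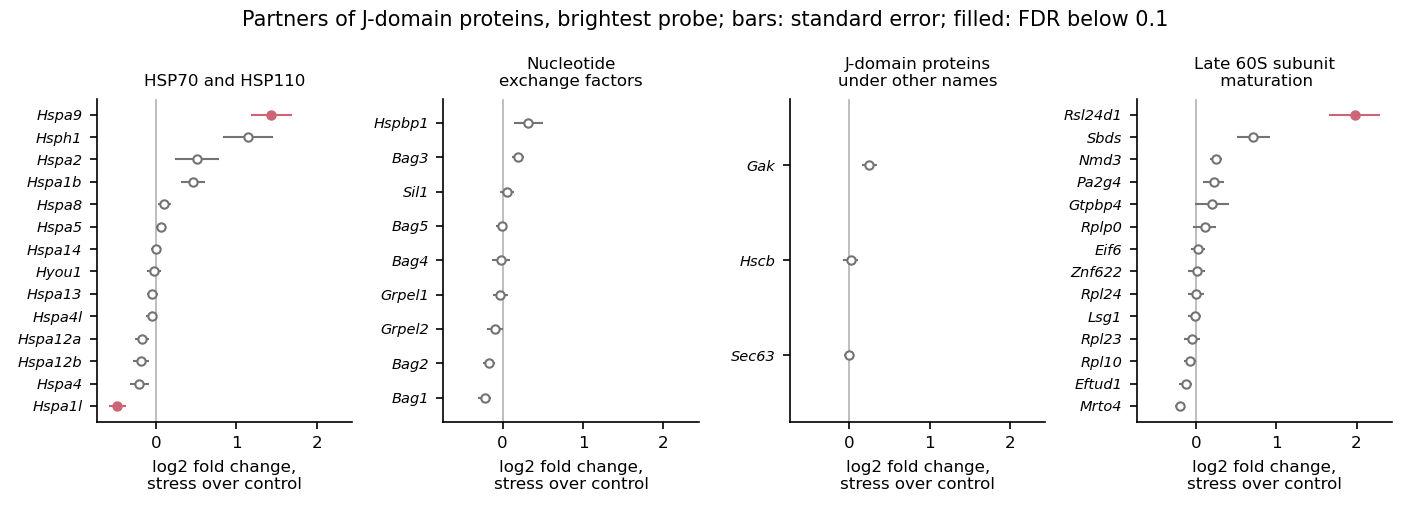
Log2 fold change (stress minus control, 4 rats a group) of the brightest probe of each tested gene in the 4 partner lists, with bars for the standard error. Filled points are genes at FDR below 0.1, Hspa9 at 1.44 and Hspa1l at -0.48. Rsl24d1 at 1.98 is drawn filled too, but it and Mrto4 were known from earlier results of these data and are described without a test.

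Promoters were read for the members with an entry in RefSeq on the GRCr8 assembly, 30 of 40, over the 250 bases before the start of the gene, on both strands. The endoplasmic reticulum stress element was searched as CCAAT and CCACG with 9 free bases between them, and these parts CCAAT and CCACG also alone, so that they overlap it. For each member 1 promoter was read, while the 33469 promoters set beside them are all entries, not limited to 1 for each gene. The shares are thus not of sets built alike. The full element was in 1 of 30 members, Dnajc3, beside 0.0657% of 33469 promoters. CCAAT was in 13 (43.3%), beside 34.0%, and CCACG in 15 (50%), beside 27.2%. The heat shock letters GAANNTTC were in 5 (16.7%), Dnaja1, Dnajb1, Dnajb6, Dnajc18 and Dnajc5g, beside 7.23%. A match describes the letters in this window and is not shown to be a site or a cause. The promoters of the called genes Dnajb9 and Dnajc30, of Dnajc21, and of Dnajc3 as the only holder of the full element are shown, with CCAAT and CCACG of either strand in capitals. They lie at chr6:67002052-67002301, chr12:27265941-27266190 and chr2:61173909-61174158, all on the minus strand, and at chr15:102432417-102432666 on the plus strand.
Dnajb9: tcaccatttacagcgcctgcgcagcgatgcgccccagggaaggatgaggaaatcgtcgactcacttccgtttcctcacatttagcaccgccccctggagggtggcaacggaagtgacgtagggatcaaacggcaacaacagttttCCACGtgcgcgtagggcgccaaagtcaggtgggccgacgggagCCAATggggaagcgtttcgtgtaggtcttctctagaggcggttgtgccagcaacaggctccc
Dnajc30: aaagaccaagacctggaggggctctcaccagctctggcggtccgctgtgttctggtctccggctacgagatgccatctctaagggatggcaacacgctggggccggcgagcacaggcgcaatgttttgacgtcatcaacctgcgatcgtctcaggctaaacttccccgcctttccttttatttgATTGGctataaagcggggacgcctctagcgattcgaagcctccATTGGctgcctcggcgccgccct
Dnajc21: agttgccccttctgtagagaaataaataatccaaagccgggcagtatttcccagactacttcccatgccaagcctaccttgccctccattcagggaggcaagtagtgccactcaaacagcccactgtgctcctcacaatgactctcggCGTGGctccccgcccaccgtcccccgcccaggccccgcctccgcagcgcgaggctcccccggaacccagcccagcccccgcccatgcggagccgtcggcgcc
Dnajc3: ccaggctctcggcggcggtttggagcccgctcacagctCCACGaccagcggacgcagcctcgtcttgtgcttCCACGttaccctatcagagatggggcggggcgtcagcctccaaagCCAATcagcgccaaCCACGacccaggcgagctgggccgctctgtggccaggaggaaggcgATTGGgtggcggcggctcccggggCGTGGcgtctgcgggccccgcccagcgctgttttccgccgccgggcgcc
Dnajb9, which rose by 0.49, held 1 CCAAT and 1 CCACG, and Dnajc3, which differed by 0.28 and was not called, held 2 and 4. In Dnajc30 there were 2 CCAAT and 0 CCACG, and in Dnajc21 0 and 1.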

How the data were processed

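RNA of the lumbar spinal cord of 8 rats was hybridised to Agilent 1-colour arrays, 1 array per rat. The intensity values the authors deposited are, per the file headers, those of Feature Extraction 10.7.3.1, background-subtracted and detrended within an array. No normalization between arrays was found in them. A table of the series holds values equal to this processed signal within 1% for 95.3% to 97.2% of its entries, with medians of 323, 329.4, 347.9 and 355.4 for control replicates 1 to 4 and 303.3, 316.4, 335.1 and 323.8 for stress replicates 1 to 4, so its scale is linear and uncentred. The study's methods name dChip, without a normalization or test, and FDR thresholds stand in its results.

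Control spots (4259) and outlier spots were left out, which left 10 probes without a value on some array, and these were not tested. From the log2 of the processed signal the array's 75th percentile was subtracted, and spots of a probe were averaged. Well above background means that Feature Extraction marked a share of 0.5 or more of the spots so. Groups were compared with limma 3.58.1 (lmFit, eBayes, no covariate) in R 4.3.3, and tables were handled by data.table (version 1.17.8), with two-sided p values adjusted by Benjamini-Hochberg over all 23678 tested probes and thresholds of 0.1 and 0.05. Exact permutation tests ran over all 70 choices of 4 arrays. The limma p values set a difference against the spread between rats within the groups, moderated over all tested probes. The number of arrays limits the precision.

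The brightest probe stands for a gene. The rule for named genes took Dnajc21, each DnaJ gene called, the 4 highest and the 4 lowest fold changes of the family, the lowest p of each class, genes with probes of opposite sign that both had an unadjusted p below 0.05 (none), and from each partner list the called genes and both extremes. Others were named after their values were seen. Dnajc21, chosen for its known difference, was left out of the counts of DnaJ genes called, although the plan had counted it, and so were Rsl24d1 and Mrto4 from those of the 60S list. Members and lists were chosen with earlier results of these data known. The files place the probes on rn4. A listed marker and a listed partner are not reported here and were left out of their lists.

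Alternatives were normexp background correction (offset 50), quantile and median scaling, the table of the series, dim probes kept, probes required above background on all 8 arrays, limma's trend and robust options, array weights, the replicate number as a block, the 5′ minus 3′ covariate (tried earlier on these data after seeing them), a gene called by any of its probes, p values adjusted over 1 probe for each symbol, and the loss of each array in turn.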

Additional observations from a re-analysis of the deposited data

Results flagged for a closer look

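For the 37 tested DnaJ genes and the 8 named partner genes, the gap between the highest or lowest rat of a group and its nearest neighbour was divided by the range of the group. By Dixon's 95% critical value it was too large in 8 of 90 groups, where chance gives about 1 in 20, or 4.5. In 4 of the 8 the rat was control replicate 2, the lowest of its group for Dnaja2 (0.898, at a log2 signal of 0.97), Dnajb11 (0.887, at -0.13), Dnajc14 (0.869, at -0.39) and Dnajc15 (0.859, at 0.57). Control replicate 1 was the highest for Dnajc2 (0.891, at 1.42). In the stress group, replicate 2 was the highest for Dnajb4 (0.920, at -1.92) and the lowest for Dnajc10 (0.876, at 0.89), and replicate 4 was the lowest for Dnajc30 (0.916, at -4.42).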

How the results depend on the processing

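With the main processing 885 probes and 2 DnaJ genes other than Dnajc21 were called, and in parentheses is the share of all genes called (3.62%). The counts were 215 and 1 after normexp background correction (0.808%), 3010 and 5 with dim probes kept (9.38%), 1079 and 4 with probes required above background on all 8 arrays (4.78%), 11983 and 22 with array weights (49.5%), and 2390 and 4 with the 5′ minus 3′ covariate (10.6%). Leaving out each rat gave 0 to 10036 probes and 0 to 21 DnaJ genes, both highest without control replicate 2. Where limma called 0 DnaJ genes on leaving out a rat, 4 to 6 had an unadjusted p below 0.05. The share of called probes that were higher in stressed rats was 74% (655 higher, 230 lower), and it was 58.1% (685, 495) after quantile normalization, 48.3% (597, 640) after median scaling, 88.4% (190, 25) after normexp and 48.2% (1151, 1239) with the covariate. The median log2 fold change of the family was -0.020 after quantile normalization and -0.051 after median scaling. With the covariate Dnajc21 differed by 0.66 and Dnaja2 by 0.34, the latter with the sign turned. The cause was not tested.

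With the replicate number as a replicate block limma called 0 probes and 0 DnaJ genes, with 4292 probes and 6 DnaJ genes at an unadjusted p below 0.05. Deviations from the group means of rats with the same number correlated at 0.095, 0.12, -0.087 and 0.305, so the numbers were not taken to pair the rats. Genes whose brightest probe was well above background on fewer than 4 arrays, Dnajb7, Dnajc5b and Dnajc5g of the family, were not tested.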
